A study of Mus musculus with 4 samples.

Results

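Imprinted genes were followed in Leydig cells, the androgen-producing cells between the seminiferous tubules of the testis. They are a list of 37 genes taken from 27357 Ensembl gene IDs in the deposited tables, and all 37 matched an ID by symbol. The list names imprinted genes and was selected on the KO against WT expression values of these same libraries, H19 above all, so the values of its members in that contrast are given as a description with no test. Of the 37 genes, 23 stood at 1 RPKM or more (reads corrected for the length of the gene and the depth of the library) in at least 2 of the 4 libraries, which was the filter for the fit. H19 passed this filter through the WT libraries alone.

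The Leydig cells came from male mice labelled C2orf74 KO (2 libraries) or WT (2 libraries). In both genotypes the mice were fed a high-fat diet for 12 weeks from 8 weeks of age, so there is no group on another diet. The labels do not state which part of C2orf74 was removed, in which cells, in what strain, or whether a library is 1 animal or a pool, so p-values reflect only how far these libraries differ, and that spread may be technical. The KO libraries held 15694389 and 19764004 reads and the WT libraries 13847807 and 15817093 reads, worked back from the smallest steps in the value tables. All 12 Leydig cell markers were detected and their summed level was 1989 and 2087 RPKM in KO against 1857 and 1667 RPKM in WT. Of the 12 Leydig markers 8 were higher and 4 lower in KO: the hormone Insl3 had 73.0 and 81.5 RPKM in KO and 164 and 133 RPKM in WT, while the steroid enzyme Hsd3b6, the largest part of the sum, had 673 and 819.6 RPKM in KO and 484 and 459.6 RPKM in WT. Markers listed for other cells reached similar levels. Lyz2, of macrophages, had 504 and 811 RPKM in KO and 970 and 736 RPKM in WT. Clu, of Sertoli cells, had 759 and 627 RPKM in KO and 653 and 797 RPKM in WT. The mouse gene for C2orf74, 1700093K21Rik, was listed at 0 in both KO libraries, and at 0 and 0.126 RPKM (4 reads) in the WT libraries. A count of 0 allowed up to 0.0952 and 0.0756 RPKM in the KO libraries (3 reads, counting error only), so this gene does not check the labels at this depth.

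Genomic imprinting is the expression of a gene from only the maternal or only the paternal chromosome, set by DNA methylation laid down in the egg or the sperm. Imprinted genes lie in domains in which an imprinting control region governs several neighbours at once, often through a long non-coding RNA from one parental chromosome. Many of them regulate growth: Igf2, from the paternal chromosome, is a growth factor, whereas H19 next to it is a non-coding RNA from the maternal chromosome that competes with Igf2 for shared enhancers. The libraries hold total expression only, with no information on the parental allele, and allele names below are background.

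Among the 23 genes that passed the filter, Cd81 stood highest and Snrpn lowest in mean level over the 4 libraries. Cd81, a membrane tetraspanin imprinted in the placenta, had 141 and 123 RPKM in KO and 143 and 132 RPKM in WT, and its groups overlap. Impact, a translational regulator expressed from the paternal chromosome in mouse, came next at 26.2 and 29.8 RPKM in KO and 27.8 and 25.8 RPKM in WT, also with overlapping groups. Grb10, Igf2, Igf2r, Dcn, Ndn and Peg13 followed in that order, and Grb10 and Igf2, Igf2r and Dcn, Dcn and Ndn, and Ndn and Peg13 each overlap as neighbours in the range over the 4 libraries. H19 was the second lowest of the 23 genes on average and the only one with a KO library at 0.

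**Figure D1:**
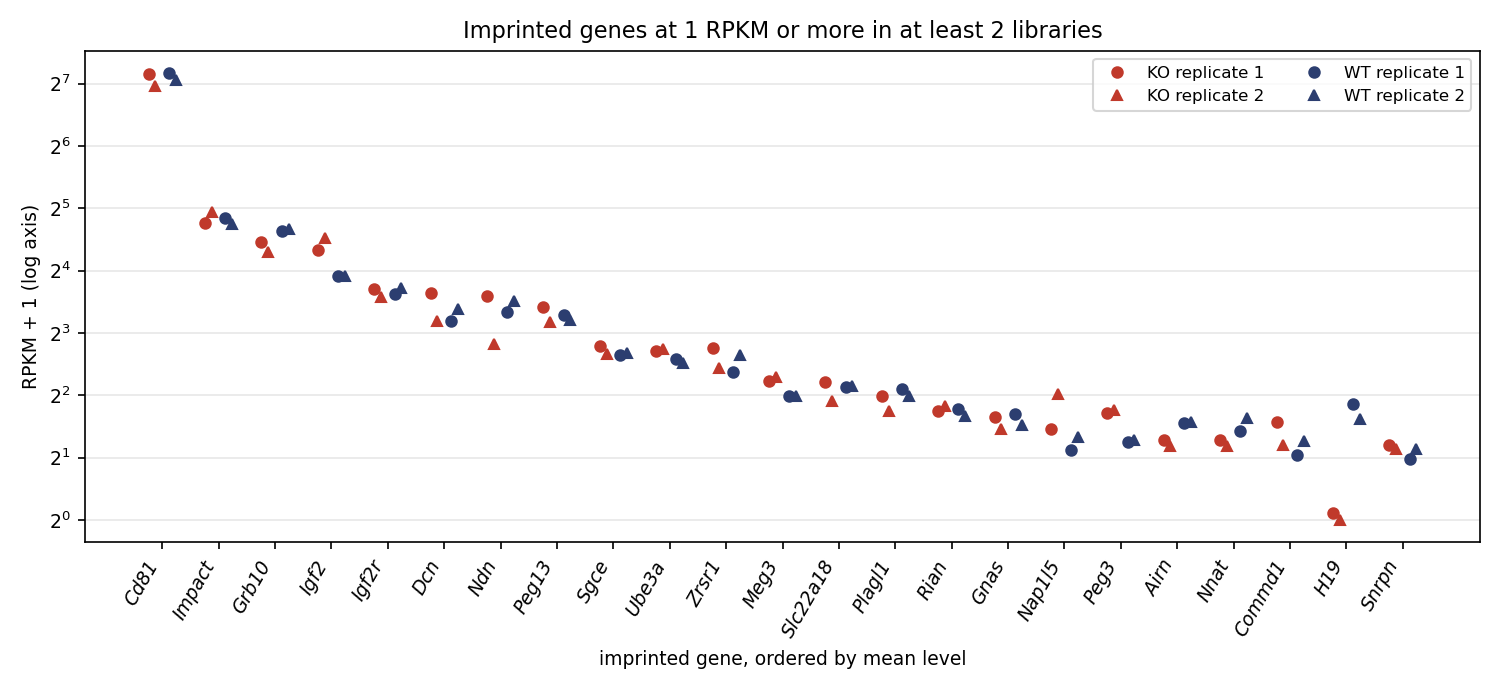
Levels of the 23 imprinted genes that passed the filter, as RPKM + 1 on a log axis, with 1 point per library (KO left of WT within each gene, circles for replicate 1 and triangles for replicate 2). H19 has both KO points near the floor and both WT points between 2 and 3 RPKM, while the KO and WT points of Cd81, Impact and Igf2r lie together.

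H19 (ENSMUSG00000000031), the maternally expressed long non-coding RNA at chromosome 7, 142575529 to 142578143 on the minus strand in GRCm38, was nearly undetected in KO. It had 0.0806 and 0 RPKM in KO and 2.62 and 2.08 RPKM in WT. Both KO libraries were at or near 0 and both WT libraries were well above them. The values correspond to 3 and 0 reads in KO and 86 and 78 reads in WT, at the transcript length of 2372 bases that makes the reads of all libraries whole. The ratio of KO to WT in reads, corrected for depth, was 0.0153, with an exact 95% interval of 0.00312 to 0.0455 that covers counting error only. In KO replicate 2 a count of 0 allowed up to 0.0617 RPKM, taken at the annotated exonic length of 2460 bases. On the log2(RPKM + 1) scale, which understates changes of low genes, the difference was -1.68 ± 0.17 (SE), and it was -4.18 with a pseudocount of 0.1 and -6.35 with voom on rounded reads, a setting chosen after seeing the data. Of the 12391 genes tested, H19 had the 14th lowest log2 change. It was chosen on these same values and passed the filter through WT alone, so the rank is a description only.

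Igf2 (ENSMUSG00000048583), the paternally expressed insulin-like growth factor whose gene starts 88.7 kb upstream of H19, lay on the other side of its WT values. It had 19.1 and 22.1 RPKM in KO and 14.1 RPKM in both WT libraries, and the groups do not overlap. Its mean was 20.6 ± 2.10 RPKM in KO and 14.1 ± 0.0012 RPKM in WT (SD, n = 2 each), a log2 difference of 0.51 ± 0.10 (SE). The level of Igf2 per length was 237 times that of H19 in KO replicate 1, with no ratio in KO replicate 2 where H19 was at 0, against 5.38 and 6.78 times in WT. In the KO libraries there was thus more RNA of the growth factor and almost none of the non-coding RNA.

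Each gene of this pair holds a microRNA. The mature miR-675 strands lie in an exon of H19 and the mature miR-483 strands lie in Igf2 outside its exons, all on the minus strand in GRCm38. They are at chr7:142577112-142577133 (miR-675-5p), chr7:142577078-142577099 (miR-675-3p), chr7:142654968-142654989 (miR-483-5p) and chr7:142654932-142654952 (miR-483-3p). They are shown because their hosts lay on opposite sides of WT, although mature microRNAs were not measured here. The sequences are from RefSeq (GRCm38.p6), 5′ to 3′, with the seed (bases 2 to 8) in capitals, and no seed is shared among them.
mmu-miR-675-5p: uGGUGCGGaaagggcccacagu
mmu-miR-675-3p: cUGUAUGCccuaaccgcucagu
mmu-miR-483-5p: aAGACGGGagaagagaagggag
mmu-miR-483-3p: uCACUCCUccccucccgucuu

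The other genes around H19 had smaller differences than H19. Of 7 tested genes that start within 0.5 Mb of H19, Igf2 included and H19 left out, 1 was higher and 6 were lower in KO, and their median log2 change was -0.22, against -0.02 over all genes tested. None of the 7 passed an FDR of 0.05 by limma, and 1 was higher and 2 lower at an unadjusted p under 0.05, beside 4.33% higher and 7.42% lower over all genes. Mrpl23, a mitochondrial ribosomal protein gene 45.5 kb downstream of H19, had 5.55 and 4.45 RPKM in KO and 6.14 and 5.80 RPKM in WT, and Ctsd, the lysosomal protease cathepsin D, had 276 and 282 RPKM in KO and 356 and 326 RPKM in WT. Tssc4, beyond Cd81, had 12.6 and 9.52 RPKM in KO and 15.9 and 16.1 RPKM in WT. The ratio of KO to WT mean RPKM was 0.837 for Mrpl23, 0.819 for Ctsd and 0.692 for Tssc4, whose log2 difference of -0.51 was as large as that of Igf2 in the other direction.

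**Figure D2:**
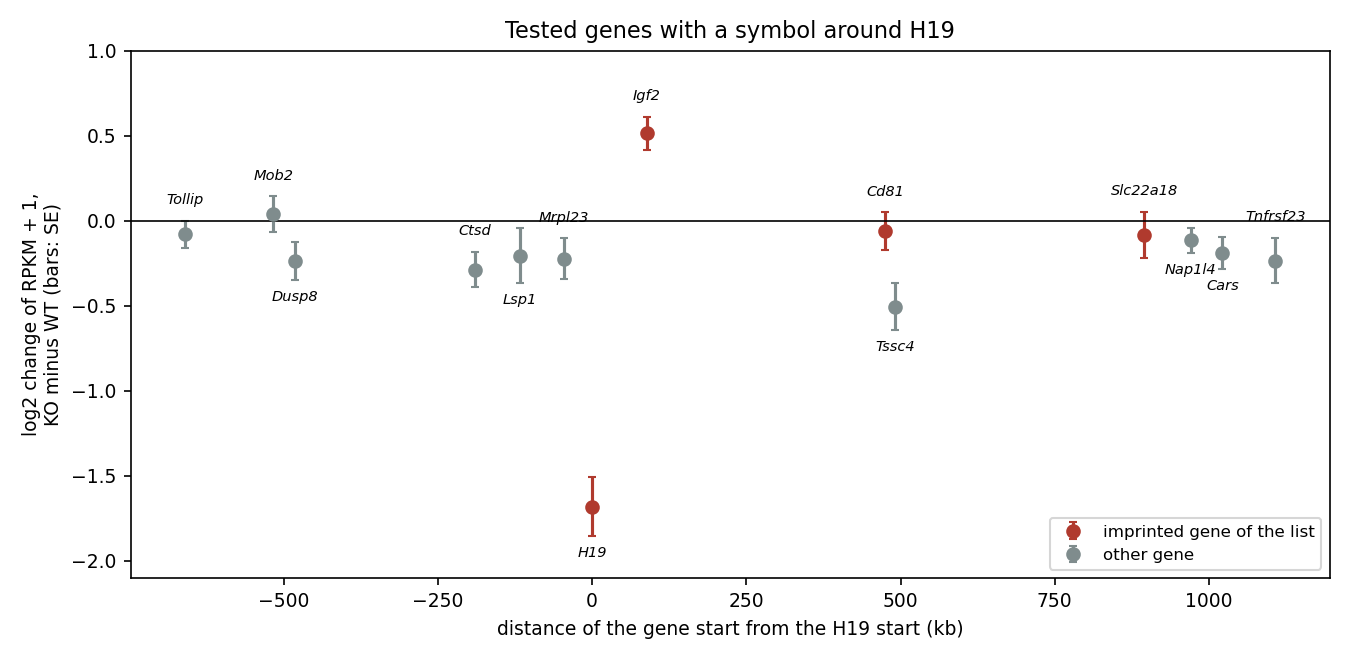
Log2 change of RPKM + 1, KO minus WT, with SE (n = 2 each), for the tested genes with a symbol around H19, placed by the distance of their start from the H19 start in kb (genomic order, with negative values towards lower coordinates). H19 lies at -1.68 and Igf2 at 0.51, while the other genes drawn lie between -0.51 and 0.04.

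Summed endothelial and smooth muscle markers were also lower in both KO libraries, and in bulk libraries fewer cells of a type and less RNA per cell cannot be told apart. Endothelial markers summed to 22.0 and 18.7 RPKM in KO and 32.3 and 37.1 RPKM in WT over 10 markers, a ratio of 0.586. All 5 tested members were lower, but 3 of them, Esam, Cldn5 and Sox18, passed the filter through the WT libraries alone, so their direction was fixed by it. Peritubular myoid and smooth muscle markers summed to 205 and 185 RPKM in KO and 234 and 268 RPKM in WT, a ratio of 0.776, with 7 of 8 tested members lower. Fibroblast and stroma markers summed to 305 and 257 RPKM in KO and 305 and 336 RPKM in WT, with 4 of 7 tested members lower. Collagen genes made most of each of these sums. Macrophage markers summed to 735 and 1156 RPKM in KO and 1404 and 1066 RPKM in WT, mostly Lyz2, and the sums overlap. On average 11 of 11 were lower, but the groups did not overlap for only 3, beside 44.7% of all tested genes. At an unadjusted p under 0.05 by limma 1 was lower, beside 7.42% of all genes. The mean RPKM of H19 in KO was 0.0172 of that in WT. The part of these cell types in the H19 result was not tested.

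**Figure D3:**
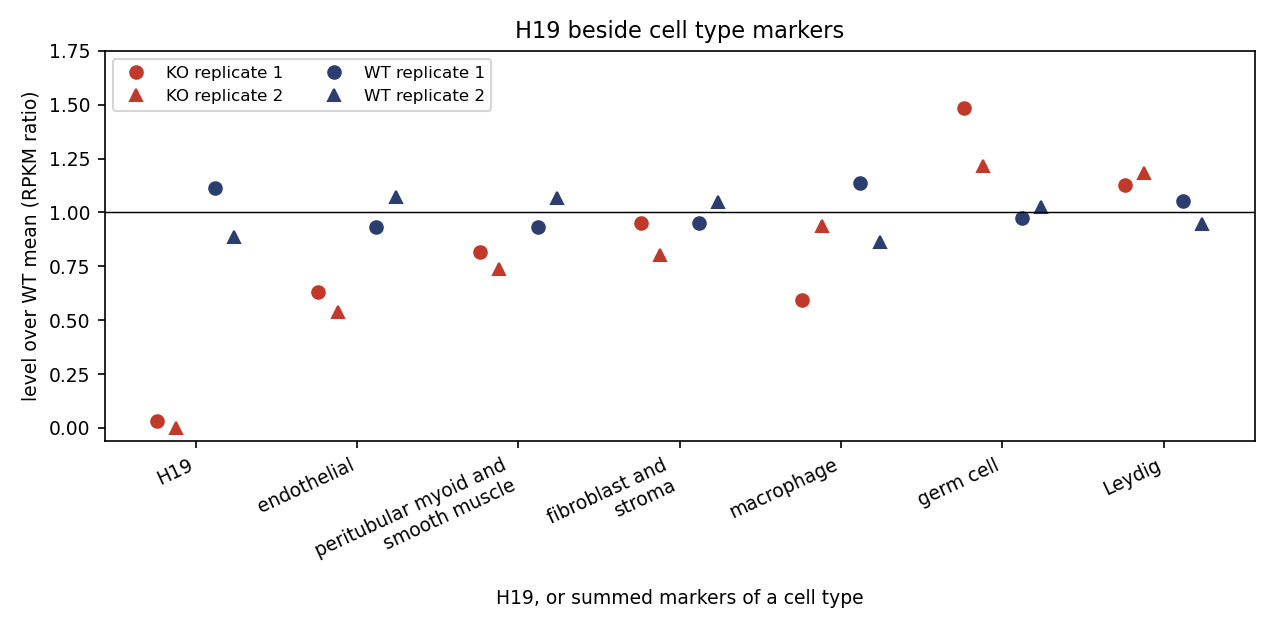
RPKM of H19 and summed RPKM of the markers of 6 cell types, each divided by its WT mean, with 1 point per library (KO left of WT). The H19 points of KO lie at or near 0, and among the summed markers the ratio of KO to WT means is lowest for the endothelial ones, at 0.586.

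Over the whole list the differences went both ways. Of the 23 genes that passed the filter 13 were higher in KO and 10 were lower. The median of their differences on log2(RPKM + 1) was 0.06, while 46.2% of all 12391 tested genes were higher and their median was -0.02. The groups did not overlap for 10 of the 23 genes, 5 higher and 5 lower, while they did not overlap for 44.7% of all tested genes (19.7% higher and 25% lower). By limma with Benjamini-Hochberg adjustment over all genes, 0 genes of the series (0%) passed an FDR of 0.05, so no member did either, and 3 members were higher and 3 lower at an unadjusted p under 0.05, where the share over all genes was 11.7% (4.33% higher and 7.42% lower). Among genes known as paternally expressed 8 of 12 were higher in KO, and among genes known as maternally expressed 2 of 6 were. These counts describe a list chosen with this contrast known, and nothing is read from them.

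**Figure D4:**
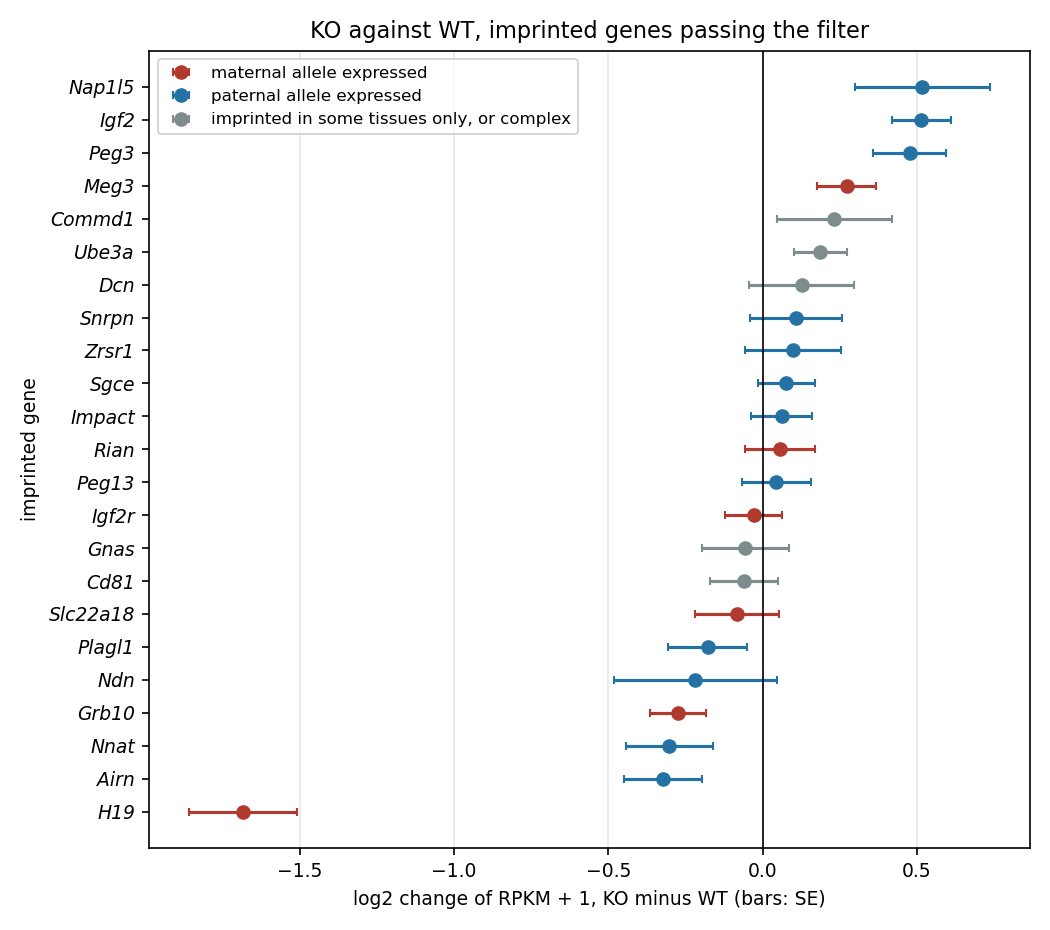
Log2 change of RPKM + 1, KO minus WT, with SE (n = 2 each), for the 23 imprinted genes that passed the filter, coloured by the parental allele they are known to be expressed from. H19 stands alone at -1.68, Nap1l5, Igf2 and Peg3 lie at 0.52, 0.51 and 0.48, and the remaining genes lie between -0.32 and 0.27.

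Beside Igf2, the highest log2 changes belonged to Nap1l5 and Peg3, both paternally expressed. Peg3, a zinc finger protein that regulates transcription, had 2.28 and 2.40 RPKM in KO and 1.38 and 1.42 RPKM in WT. Both KO libraries were above both WT libraries, with a mean of 2.34 ± 0.0841 RPKM in KO and 1.40 ± 0.0331 RPKM in WT (SD, n = 2 each) and a log2 difference of 0.48 ± 0.12 (SE). Nap1l5, an intronless gene related to nucleosome assembly proteins, had 1.76 and 3.05 RPKM in KO and 1.17 and 1.51 RPKM in WT. Its KO libraries differed more from each other than the WT libraries did, and its log2 difference of 0.52 ± 0.22 (SE) was 0.24 without KO replicate 2. In the Peg3 domain the maternally expressed Zim1 had 0.102 and 0.144 RPKM in KO and 0.0804 and 0.133 RPKM in WT, and Usp29 had 1 and 2 reads in KO and 0 reads in both WT libraries.

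The Dlk1-Meg3 domain on chromosome 12 carries the paternally expressed Notch-pathway ligand Dlk1 and Rtl1, and the maternally expressed non-coding RNAs Meg3, Rian and Mirg. Meg3 had 3.70 and 3.88 RPKM in KO and 2.99 and 2.95 RPKM in WT, with no overlap and a log2 difference of 0.27 ± 0.09 (SE). Rian, which hosts small nucleolar RNAs, had 2.36 and 2.55 RPKM in KO and 2.46 and 2.19 RPKM in WT, and its groups overlap. Dlk1, a marker of fetal Leydig cells, did not pass the filter: it had 2.12 and 0.635 RPKM in KO and 0.843 and 0.592 RPKM in WT, so that KO replicate 1 alone stood apart. Mirg, a microRNA host, had 0.210 and 0.187 RPKM in KO and 0.139 and 0.173 RPKM in WT, and Rtl1 had at most 2 reads in any library. The ratio of Dlk1 to Meg3 per length was 0.572 and 0.164 in KO and 0.282 and 0.201 in WT, and the KO libraries lie on either side of WT.

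In the Kcnq1 domain, which adjoins the Igf2 domain on chromosome 7, most genes were barely detected. Slc22a18, a transporter, had 3.64 and 2.74 RPKM in KO and 3.40 and 3.42 RPKM in WT, and its groups overlap. The paternal non-coding RNA Kcnq1ot1 had 0.161 and 0.137 RPKM in KO and 0.111 and 0.0914 RPKM in WT, both KO libraries above both WT libraries. Kcnq1, the potassium channel gene on the opposite strand with which it shares exonic bases, had 0.0156 and 0.0247 RPKM in KO and 0.229 and 0.108 RPKM in WT, which is 1 and 2 reads in KO and 13 and 7 reads in WT. The cell cycle inhibitor Cdkn1c had 10 and 4 reads in KO and 8 and 2 reads in WT, the growth regulator Phlda2 1 and 0 reads in KO and 3 and 2 reads in WT, and the placental transcription factor Ascl2 7 and 0 reads in KO and 1 and 7 reads in WT. The groups of Cdkn1c and Ascl2 overlap, while those of Kcnq1, Kcnq1ot1 and Phlda2 do not, at counts that are very low for Kcnq1 and Phlda2.

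Igf2r, the maternally expressed receptor that removes Igf2 from the cell surface, had 12.1 and 10.9 RPKM in KO and 11.3 and 12.2 RPKM in WT, with overlapping groups and a log2 difference of -0.03 ± 0.09 (SE). Airn, the paternal non-coding RNA that silences Igf2r on its own chromosome, had 1.44 and 1.27 RPKM in KO and 1.93 and 1.96 RPKM in WT, with no overlap. Airn overlaps the Igf2r start on the opposite strand, though their annotated exons share no bases, and whether reads were counted by strand is not stated. Grb10, an adaptor that dampens insulin and IGF receptor signalling, had 20.95 and 18.6 RPKM in KO and 23.9 and 24.3 RPKM in WT, a log2 difference of -0.27 ± 0.09 (SE) with no overlap. Plagl1, a zinc finger regulator of other imprinted genes, had 2.97 and 2.37 RPKM in KO and 3.31 and 2.98 RPKM in WT, with KO replicate 1 just under WT replicate 2.

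Of the remaining genes, Nnat, a small membrane protein of the endoplasmic reticulum, had 1.43 and 1.27 RPKM in KO and 1.70 and 2.11 RPKM in WT, with no overlap. Gnas, the stimulatory G protein subunit through which luteinizing hormone acts, had 2.15 and 1.74 RPKM in KO and 2.25 and 1.87 RPKM in WT, and its antisense RNA Nespas 1 read in all libraries together. In the Snrpn-Ube3a domain, Ube3a, a ubiquitin ligase imprinted in neurons, had 5.58 and 5.71 RPKM in KO and 4.96 and 4.71 RPKM in WT, with no overlap. Ndn, a growth-suppressing MAGE family protein, had 11.1 and 6.04 RPKM in KO and 9.05 and 10.5 RPKM in WT, so that the KO libraries lay on either side of both WT libraries. The splicing gene Snrpn had 1.30 and 1.20 RPKM in KO and 0.970 and 1.20 RPKM in WT, and its groups overlap. Magel2 had 0 reads in both KO libraries and 1 read in each WT library. Exons of Ube3a, Gnas, Mest, H19, Cd81, Meg3, Plagl1, Nnat, Snrpn, Cdkn1c, Rtl1 and Usp29 also overlap annotated genes on the other strand. Reads of those genes cannot be told apart from theirs without strand, while Igf2os, opposite Igf2, was listed at 0 in all 4 libraries. Exons of Igf2, Meg3, Snrpn and Commd1, among others, overlap annotated genes on their own strand.

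Sgce, the sarcoglycan of the Peg10 domain, had 5.95 and 5.36 RPKM in KO and 5.23 and 5.37 RPKM in WT. Its retrotransposon-derived neighbour Peg10 had 0.994 and 0.797 RPKM in KO and 0.942 and 1.01 RPKM in WT, just under the filter. Mest, a hydrolase-like protein, had 0.840 and 0.923 RPKM in KO and 0.970 and 0.737 RPKM in WT. The non-coding RNA Peg13 had 9.71 and 8.04 RPKM in KO and 8.80 and 8.28 RPKM in WT, and the matrix proteoglycan Dcn, imprinted in the placenta, had 11.4 and 8.12 RPKM in KO and 8.10 and 9.44 RPKM in WT. The groups of all 5 genes overlap. 

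Zrsr1 and Commd1 share chromosome 11 with the targeted gene, from which Zrsr1 starts 549 kb and Commd1 539 kb away. Zrsr1 is a paternally expressed splicing factor gene that lies on the opposite strand within Commd1, a regulator of copper and protein trafficking, and some of their exonic bases are shared, so their reads cannot be told apart without strand. Zrsr1 had 5.79 and 4.44 RPKM in KO and 4.16 and 5.24 RPKM in WT, and Commd1 had 1.99 and 1.30 RPKM in KO and 1.07 and 1.41 RPKM in WT. With this pair all 37 genes are accounted for. Both genes overlap between the groups, with log2 differences of 0.10 ± 0.16 and 0.23 ± 0.19 (SE). Among 13 tested genes that start within 1 Mb of C2orf74, 10 were higher and 3 lower in KO, and 0 passed an FDR of 0.05 by limma, with 1 higher and 1 lower at an unadjusted p under 0.05, near the 11.7% of all genes. The extremes were Cct4, a chaperonin subunit, at 44.2 and 43.3 RPKM in KO and 51.1 and 50.5 RPKM in WT, and Usp34, a deubiquitinase, at 12.7 and 12.3 RPKM in KO and 10.5 and 10.4 RPKM in WT.

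The promoters of the 4 genes with the highest log2 changes in KO are shown because those genes come from 4 separate domains. The letters TGCCGC, on either strand, are the core bound by ZFP57, a zinc finger protein that keeps imprints methylated, and are in capitals. Of 27 listed genes with a promoter in RefSeq (GRCm38.p6, 250 bases before to 50 after the start), 10 held the letters in at least 1 promoter. Counted by promoter this was 11 of 41, or 26.8%, beside 11.6% of all 32851 promoters, and the median number of CpG dinucleotides was 14 beside 7. For Igf2 and Meg3 the only promoter of the gene that holds the letters is given. The windows are chr7:142661222-142661521 (minus) for Igf2, chr7:6730370-6730669 (minus) for Peg3, chr12:109540746-109541045 (plus) for Meg3 and chr6:58907077-58907376 (minus) for Nap1l5.
Igf2: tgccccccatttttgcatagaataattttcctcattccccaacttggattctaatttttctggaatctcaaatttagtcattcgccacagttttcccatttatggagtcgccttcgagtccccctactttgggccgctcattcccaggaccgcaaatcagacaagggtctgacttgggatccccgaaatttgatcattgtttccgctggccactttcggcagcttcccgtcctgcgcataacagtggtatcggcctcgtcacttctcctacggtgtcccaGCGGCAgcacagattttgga
Peg3: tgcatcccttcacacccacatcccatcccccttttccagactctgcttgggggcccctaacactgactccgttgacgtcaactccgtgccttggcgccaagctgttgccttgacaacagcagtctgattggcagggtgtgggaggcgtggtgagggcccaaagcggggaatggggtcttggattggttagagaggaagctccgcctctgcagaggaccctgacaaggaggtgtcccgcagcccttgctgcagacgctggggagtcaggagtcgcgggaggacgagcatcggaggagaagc
Meg3: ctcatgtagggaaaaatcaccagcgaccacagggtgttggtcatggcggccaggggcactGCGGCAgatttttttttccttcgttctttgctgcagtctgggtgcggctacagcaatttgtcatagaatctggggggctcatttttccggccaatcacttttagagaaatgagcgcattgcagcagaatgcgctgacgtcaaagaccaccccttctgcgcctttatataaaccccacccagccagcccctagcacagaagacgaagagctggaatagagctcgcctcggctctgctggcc
Nap1l5: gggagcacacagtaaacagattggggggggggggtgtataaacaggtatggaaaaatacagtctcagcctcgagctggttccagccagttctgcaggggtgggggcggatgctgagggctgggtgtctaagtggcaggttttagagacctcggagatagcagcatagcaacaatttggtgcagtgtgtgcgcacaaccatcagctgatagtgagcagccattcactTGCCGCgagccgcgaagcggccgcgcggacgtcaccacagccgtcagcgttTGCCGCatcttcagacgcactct

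These windows hold 1, 0, 1 and 2 matches for Igf2, Peg3, Meg3 and Nap1l5 in that order. A match is a description of the letters and not a binding site.

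Genes that set, keep or read imprints were examined as a list of 33, of which 31 were in the tables and 28 were tested. None of the 28 passed an FDR of 0.05 by limma, 16 were higher and 12 lower, and their median log2 difference was 0.02, against -0.02 over all genes. Unadjusted p-values were under 0.05 for 5 of them, 4 higher and 1 lower, beside 4.33% higher and 7.42% lower over all genes. The maintenance methyltransferase Dnmt1 had 16.3 and 15.4 RPKM in KO and 17.3 and 16.0 RPKM in WT, the corepressor Trim28 37.0 and 33.5 RPKM in KO and 37.5 and 39.0 RPKM in WT, and Ctcf, the insulator protein of the H19-Igf2 control region, 11.7 and 11.2 RPKM in KO and 12.4 and 10.6 RPKM in WT. The groups of Dnmt1 and Ctcf overlap, and Trim28 was slightly lower in both KO libraries.

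The smallest p of the list belonged to Dppa3, which protects maternal imprints in the egg and early embryo. It had 6.79 and 7.26 RPKM in KO and 1.46 and 0.851 RPKM in WT, a log2 difference of 1.91 ± 0.16 (SE, limma adjusted p = 0.124), higher in 2 of 2 KO libraries. It passed when KO replicate 1 was left out (limma adjusted p = 0.0480), and the adjusted p ran between 0.0224 and 0.338 in all alternatives run. Ooep, of the maternal complex of the egg, had 1.91 and 1.59 RPKM in KO and 0.743 and 0.621 RPKM in WT (limma adjusted p = 0.258), and passed the filter through the KO libraries alone. Zfp57 had 3.65 and 2.87 RPKM in KO and 2.00 and 1.82 RPKM in WT, a log2 difference of 0.54 ± 0.14 (SE, limma adjusted p = 0.287). The chromatin remodeller Atrx had 13.3 and 14.0 RPKM in KO and 11.1 and 11.4 RPKM in WT (limma adjusted p = 0.352). Germ cell markers summed to 16.0 and 13.1 RPKM in KO and 10.5 and 11.1 RPKM in WT. Most of each sum was Zbtb16, listed as a marker of undifferentiated spermatogonia, at 11.6 and 9.03 RPKM in KO and 7.64 and 8.90 RPKM in WT. Gfra1, of the same list, had only 0.0698 and 0.0370 RPKM in KO and 0.0527 and 0.0231 RPKM in WT, so the sum is not shown to come from germ cells. All 3 tested members were higher in KO, but 2 of them, Prm1 and Dazl, passed the filter through the KO libraries alone, so their direction was fixed by it. The germ cell helicase Ddx4 had 0.296 and 0.218 RPKM in KO and 0.503 and 0.294 RPKM in WT, and the part of germ cells in these values was not tested.

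**Figure D5:**
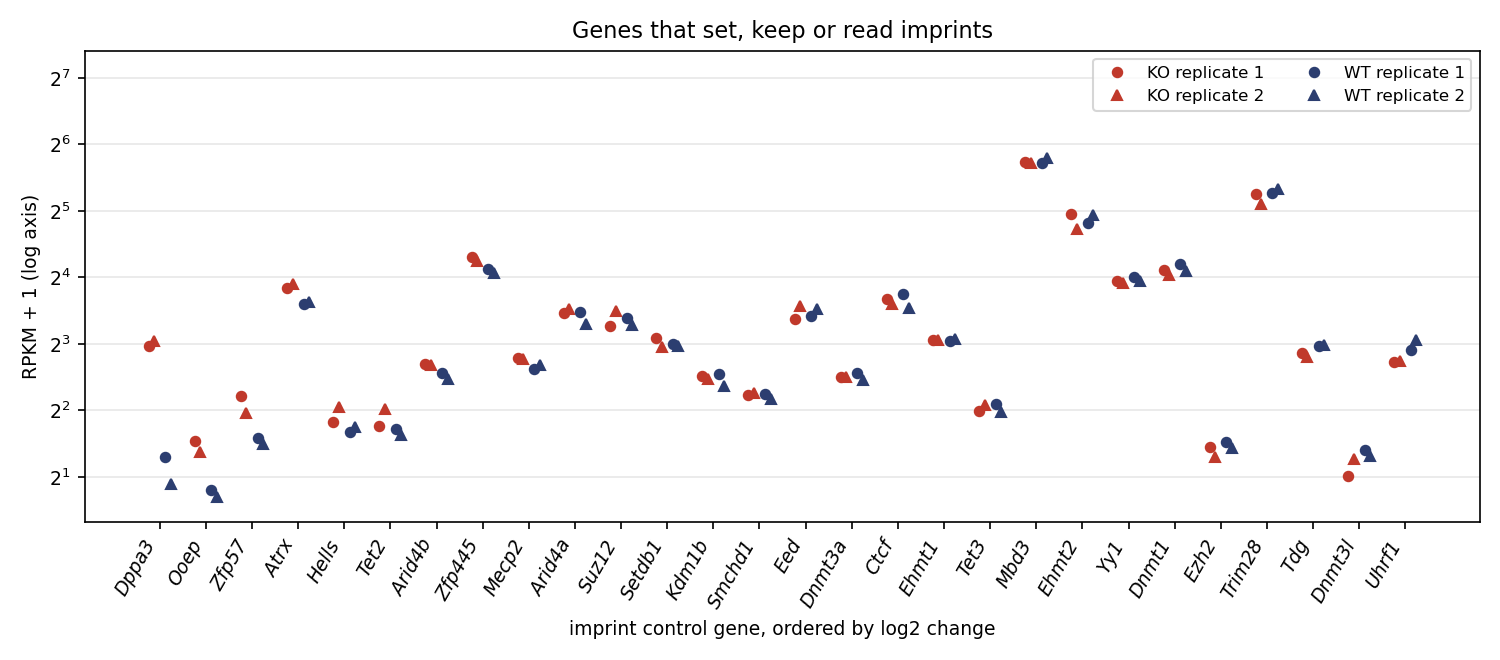
Levels of the 28 tested imprint control genes as RPKM + 1 on a log axis, ordered by log2 change, with 1 point per library (KO left of WT, circles for replicate 1 and triangles for replicate 2). Dppa3, Ooep and Zfp57 at the left have both KO points above both WT points, and the points of most other genes lie together.

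The receptors and binding proteins of Igf2 and the Notch genes with which Dlk1 acts formed a list of 24, of which 19 were tested. In KO 4 of them were higher and 15 lower, and the median log2 difference was -0.13. None passed an FDR of 0.05 by limma, and 1 was higher and 5 lower at an unadjusted p under 0.05, beside 4.33% higher and 7.42% lower over all genes, of which 46.2% were higher at any p. Igf1r, the receptor that carries the Igf2 signal, had 8.33 and 7.61 RPKM in KO and 7.79 and 8.57 RPKM in WT, and its groups overlap. Igfbp4 had 27.0 and 6.32 RPKM in KO and 24.2 and 20.9 RPKM in WT (limma adjusted p = 0.696). Its KO libraries lay on either side of WT, so a fit without KO replicate 1 keeps only the low KO library. Igfbp3, which binds Igf2 outside the cell, had 1.30 and 1.26 RPKM in KO and 2.68 and 3.27 RPKM in WT, a log2 difference of -0.80 ± 0.13 (SE, limma adjusted p = 0.178). Igfbp5 had 0.594 and 0.337 RPKM in KO and 1.11 and 1.18 RPKM in WT, and passed the filter through the WT libraries alone. Notch3, a receptor of pericytes and smooth muscle, had 1.21 and 1.14 RPKM in KO and 1.78 and 2.67 RPKM in WT, and its target Heyl 0.586 and 0.742 RPKM in KO and 1.27 and 1.48 RPKM in WT. The adjusted p by limma was 0.363 for Notch3. Heyl, like Igfbp5, passed the filter through the WT libraries alone, so the direction of both was fixed by it. Both count among the 5. The summed smooth muscle and endothelial markers given above were lower in the same libraries, and their part in these values was not tested.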

How the data were processed

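RNA was sequenced from Leydig cells of 2 C2orf74 KO and 2 WT libraries. The only genome build listed is mm9, per the submitters' processing notes. Aligner, counter, annotation and strand setting: not given in the sources used here. The tables list 27357 gene IDs and state no unit. The authors' deposited numbers were read as RPKM, inferred from the values: times the exonic length in GENCODE release M21 (GRCm38) the products fall on whole numbers of a smallest unit in each library, within 0.01 reads for 90.4% to 90.7% of values above 0, against 2% by chance. That annotation, whose coordinates are printed, gave a symbol and a length to 27306 IDs. Recovered reads support floors (3 reads) and intervals, which cover counting error only.

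The fit kept 12391 genes that reached 1 RPKM in 2 or more libraries, taken as log2(RPKM + 1) and compared, KO minus WT, with limma 3.58.1 in R 4.3.3 (genotype alone, trend, 2-sided, Benjamini-Hochberg FDR of 0.05). The fit was tested on simulated data in which only genes of higher level were changed, so that test does not cover low genes such as H19. Alternatives were other scalings, filters, pseudocounts and variance models, voom on recovered reads, each library left out, and a replicate block. Chosen after seeing the data were voom on all kept genes with reads rounded and a filter reapplied to the libraries left. Members and lists were chosen with earlier results of these data known. Every listed imprinted gene was named, with up to 4 genes of smallest p from each pathway list and up to 2 of highest mean from a marker list. The genes singled out beside them (Dnmt1, Trim28, Ctcf, Igf1r, Ddx4, Gfra1, Mrpl23, Ctsd, Insl3, Prm1, Dazl, Esam, Cldn5, Sox18, Des, Rgs5, Cyp17a1, Igfbp4) were chosen after their values were seen. Replicate numbers follow accession order in both groups and only name a library; deviations of same-numbered libraries correlated at -0.096 across genes, so they were not treated as pairs. Sertoli markers had 4 of 5 tested members lower, at 834 and 674 RPKM in KO and 719 and 871 RPKM in WT in sum. Further software was Python 3.11.15, Matplotlib 3.10.9, SciPy 1.17.1, NumPy 2.4.6 and pandas 2.3.3.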

Additional observations from a re-analysis of the deposited data

How the results depend on the processing

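With all libraries 0 genes passed an FDR of 0.05, and likewise under other scalings, filters, pseudocount, variance model and voom; with the replicate block 0 genes passed too. Leaving out 1 library gave 0 to 74 genes (74 without KO replicate 1, 4 without KO replicate 2, 0 without either WT library), in fits whose spread came from 1 pair and with a lone library assumed to vary like it. With the filter reapplied, a setting chosen after seeing the data, leaving out KO replicate 1 gave 306 genes and leaving out KO replicate 2 gave 139. Leaving out 1 library gave 0 to 1 imprint control genes (Dppa3), 0 to 2 of the Igf2 and Dlk1 pathway (Igfbp2 and Igfbp4, without KO replicate 1) and 0 of the neighbours of C2orf74. With the filter reapplied the listed imprinted genes that passed were 2 without KO replicate 1 (H19 and Igf2) and 1 without KO replicate 2 (H19); these genes were chosen on the same values, and H19 was kept by the filter through WT alone, so the calls support nothing. The imprint control list then had 1 in each of these fits (Dppa3), the other imprinted genes 1 in each (Tssc4, then Smoc1), and the pathway list 2 without KO replicate 1.

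The log2 change of 13 of the 23 tested imprinted genes kept its sign in every alternative fit that held the gene, H19 (-6.35 to -1.57), Igf2 (0.42 to 0.61), Peg3 (0.45 to 0.74) and Meg3 (0.24 to 0.36) among them. The KO and WT values of these named genes do not overlap, so leaving out a library could not turn their sign. H19 was also kept by the filter through WT alone, so its direction was fixed. The kept signs are therefore no support for these genes. The sign turned on leaving out KO replicate 2 for Cd81, Gnas, Igf2r, Impact, Ndn and Slc22a18, on leaving out KO replicate 1 for Dcn, Peg13 and Zrsr1, and on leaving out a WT library for Gnas, Igf2r, Rian and Zrsr1. Leaving out KO replicate 1 or 2 also moved Commd1 (0.05 to 0.42) and Plagl1 (-0.30 to -0.06). A smaller pseudocount or voom enlarged Airn (to -0.53), Nnat (to -0.50), Nap1l5 (to 0.82) and Peg3, low genes whose changes the log2(RPKM + 1) scale understates. The cause of the turned signs was not tested. Some genes near 1 RPKM rest on few reads, such as Snrpn with 29 to 51 reads. The longer Peg3, at 1.38 to 2.40 RPKM, had 254 to 632 reads. Groups of 2 libraries limit every comparison.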

Other observations

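Other genes reported as imprinted in mouse, outside the list above, were examined as a list of 59, of which 50 were in the tables and 27 were tested. In KO 10 were higher and 17 lower, with a median log2 change of -0.11 against -0.02 over all genes tested, and 0 passed an FDR of 0.05 by limma, with 2 higher and 3 lower at an unadjusted p under 0.05, beside 4.33% higher and 7.42% lower over all genes. The list was chosen with earlier results of these data known, and whether each gene is imprinted in Leydig cells was not measured. Tssc4, of the Kcnq1 domain, is given above with the genes around H19 (limma adjusted p = 0.316). Jade1, a chromatin adaptor, had 14.4 and 13.3 RPKM in KO and 19.6 and 17.0 RPKM in WT, a log2 difference of -0.38 ± 0.10 (SE, limma adjusted p = 0.316). Qpct, which cyclises N-terminal glutamine, had 1.66 and 2.55 RPKM in KO and 3.72 and 3.48 RPKM in WT. Smoc1, a matrix protein, had 64.4 and 47.6 RPKM in KO and 39.3 RPKM in both WT libraries, a log2 difference of 0.48 ± 0.15 (SE, limma adjusted p = 0.363). Over the list the KO and WT values did not overlap for 19 of 27 genes, beside 44.7% of all tested genes.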
